A study of Mus musculus with 9 samples.

Results

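The comparison described here sets c-KIT+ bone marrow cells that carry the CBFB-MYH11 knock-in and floxed Chd7 alleles against the same cells with the knock-in alone. Its members were chosen by the genotype labels and make up 6 of the 9 libraries of the series. The 3 libraries labelled Chd7f/f, Mx1-Cre, Cbfb+/56M are called KI_Chd7del, and the 3 labelled Mx1-Cre, Cbfb+/56M are called KI. The other 3, labelled WT, serve as reference levels and share the estimate of the spread. All 9 are labelled as strain C57BL/6 and came from mice given pIpC, an RNA mimic of viral infection that induces interferon. The cells were enriched with a kit that selects CD117, the c-KIT protein, and total RNA was sequenced. Cbfb+/56M is a conditional knock-in of the fusion, so both groups carry 1 fusion allele, 1 wild-type Cbfb allele and the Mx1-Cre transgene. The WT label names no Mx1-Cre. Mx1-Cre is driven by an interferon-inducible promoter that is active in blood cells but also in other tissues, and the share of cells with both Chd7 alleles deleted is not given in the labels. They also give no age, no interval after pIpC and do not state that each library is a different mouse. The p-values therefore measure the spread between these samples.

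CBFB-MYH11 is made by an inversion of chromosome 16 in human acute myeloid leukaemia. It joins the core binding factor subunit CBFB, the partner of the DNA-binding RUNX proteins, to the tail of smooth muscle myosin, and it disturbs the maturation of blood cells. CHD7 is an ATP-driven chromatin remodeller of the CHD family that moves nucleosomes at enhancers and promoters. The question named by the series title is whether loss of CHD7 alters the disease that the fusion starts.

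The table gives 1 scaled and rounded whole number per gene and library, called the normalised value here. Column totals ran from 37716763 to 39002839 in KI and from 37538447 to 38076394 in KI_Chd7del, and the number of reads behind them is not given in the sources used here. On the third principal component, which held 5.28% of the variance, KI_Chd7del library 1 was far from the rest of its group (45.9 against -19.5 and -28.7). It also had the highest share of mitochondrial transcripts, 2.97% against 1.83% to 2.37% in the other 5 libraries of the comparison. Counts of list members that moved by over 1.5 times without it are given beside the result.

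The altered genes were read first. Chd7 (ENSMUSG00000041235, chromosome 4, 8690406 to 8867659 on GRCm38) had normalised values of 1979, 2934 and 2009 in KI and 1862, 1794 and 1921 in KI_Chd7del. The 3 KI_Chd7del values all lay under the lowest KI value, but the log2 difference of -0.29 (SE 0.14) did not pass limma's test (adjusted p = 0.121). Loss of internal exons need not lower a gene-level value, so this is a weak check of the genotype. Kit, the gene of the selected receptor, was at 3868, 3226 and 3521 in KI and 6131, 7732 and 8508 in KI_Chd7del. Kit was high in each library, as the c-KIT+ label states, but its level differed between the groups. It was called higher in KI_Chd7del (log2 1.07, SE 0.11, adjusted p = 0.000212). The KI values lay below those of WT (7362, 7354 and 7797), and the groups KI and KI_Chd7del did not overlap. Mx1, an interferon-induced gene that lends Cre its promoter, was at 588, 860 and 662 in KI and 222, 367 and 706 in KI_Chd7del. KI_Chd7del library 3 thus reached the level of KI, and the log2 difference of Mx1 was -0.84 (SE 0.37, adjusted p = 0.0949). Without that library it was -1.28 (adjusted p = 0.00991). Values of Cbfb and Myh11, the parts of the fusion, differed by -0.01 (SE 0.06) and -0.16 (SE 0.22) and did not pass the test. The sign for Cbfb turned under each of the 5 other scalings.

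Of 15997 genes tested with limma at a Benjamini-Hochberg adjusted p of 0.05, 40.4% were called different between KI_Chd7del and KI, 17.5% higher and 22.9% lower. The balance turned with 3 rescalings, to 3818 higher and 2964 lower with upper-quartile scaling, 3973 and 2993 with quantile normalisation, and 3548 and 3035 with column totals without late neutrophil genes. In 52.0% of genes all libraries of one group lay above all of the other, so a lack of overlap alone does not set a gene apart. Counts of list members below are to be read beside these shares. At least 2-fold changes were seen in 4.52% (higher) and 7.68% (lower). Without KI_Chd7del library 1, 6394 genes were called, against 6464 with it. Gene symbols below are those of the mouse, and a member of a gene list that is named beyond the 4 with the smallest adjusted p was picked after its values were seen. In bulk RNA, fewer cells of a type and less RNA per cell cannot be told apart.

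**Figure D1:**
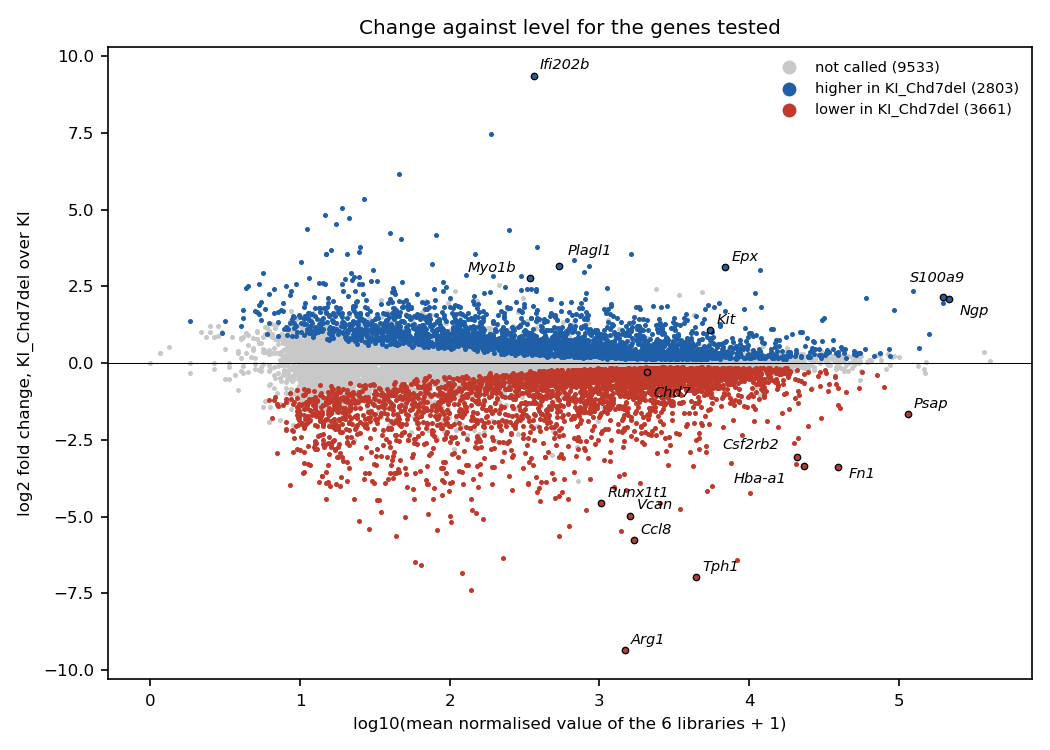
Each point is 1 of the genes tested, with the log10 mean normalised value of the 6 libraries on the x axis and the log2 fold change of KI_Chd7del over KI on the y axis; blue is called higher, red called lower and grey not called. Falls reach further than rises among well expressed genes, with Tph1, Ccl8, Vcan and Fn1 low on the plot and Chd7 near the centre line.

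The largest falls with no overlap between the groups included genes of mast cells, monocytes and macrophages. Tph1 (chromosome 7, 46644641 to 46672537), the tryptophan hydroxylase that makes serotonin in mast cells, was at 10591, 3788 and 11921 in KI and 144, 138 and 11 in KI_Chd7del (a log2 change of -6.97, SE 1.18, adjusted p = 0.00205). Vcan (chromosome 13, 89655312 to 89742509), versican, a matrix proteoglycan made by monocytes, was at 3319, 3003 and 3008 in KI and 99, 130 and 73 in KI_Chd7del. The libraries of each group lay close together for Vcan, a 31.4-fold fall (log2 -4.97, SE 0.23, adjusted p = 9.69e-06). Ccl8, a monocyte chemokine, was at 4931, 982 and 4147 in KI and 66, 52 and 34 in KI_Chd7del (a log2 change of -5.77, SE 0.58). Wtip, a LIM domain adaptor, was at 1092, 863 and 1681 in KI and 67, 47 and 7 in KI_Chd7del (a log2 change of -5.30, SE 0.69). C6, a terminal complement component, Rnase2a, a ribonuclease of the eosinophil family, Nog, the BMP antagonist noggin, and Gcm2, a transcription factor of the parathyroid, also fell (log2 -6.34, -5.62, -5.18 and -5.07). For most of these genes KI library 2 had the lowest value of its group. WT levels were near 0 for Tph1 (11, 0 and 0), Nog (0, 0 and 0) and Vcan (23, 20 and 14), so the falls led back toward the reference level without always reaching it. Retnla, a secreted marker of IL-4-treated macrophages, fell from 17928, 6702 and 21170 to 3552, 127 and 8. That call (adjusted p = 0.0233) was lost without KI library 1 or 3 or KI_Chd7del library 2 or 3 (0.0538 to 0.0661).

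The largest rises were of several kinds, with eosinophil genes recurring among them (Prg2, Prg3, Epx, Ear1 and Ear6). In each of these and in Alox15, KI_Chd7del library 1 was the lowest of its group. Plagl1 (chromosome 10, 13060504 to 13131694), an imprinted zinc finger transcription factor, was at 92, 147 and 81 in KI and 1151, 1061 and 675 in KI_Chd7del, a 9.02-fold rise (log2 3.17, SE 0.28, adjusted p = 9.61e-05). WT libraries had only 16, 11 and 16 for Plagl1, so both knock-in groups were above the reference. Ces1d, a carboxylesterase, rose from 43, 30 and 19 to 288, 155 and 232 (log2 2.86, SE 0.31, adjusted p = 0.000224). Alox15, a lipoxygenase, was at 46, 70 and 22 in KI and 220, 778 and 1157 in KI_Chd7del (a log2 change of 3.78, SE 0.75, adjusted p = 0.00438). Prg3, an eosinophil granule protein, was at 140, 158 and 134 against 516, 2225 and 1927 (log2 3.17, SE 0.49). Sh3tc2, a gene known from nerve disease, was at 2, 1 and 1 against 11, 23 and 106, while WT libraries had 1010, 921 and 894. Prss50, a testis protease gene, showed the same order, with 5, 9 and 1 in KI, 14, 37 and 112 in KI_Chd7del and 352 to 370 in WT. The rise of Hmga1b, from 81, 65 and 62 to 117, 2453 and 1269, was carried by KI_Chd7del libraries 2 and 3 and was lost without the latter (adjusted p = 0.0542) and with limma-voom (0.127). Ear1 (210, 195 and 144 against 528, 4502 and 4159) was likewise far lower in KI_Chd7del library 1 than in the other 2, and its call was lost with limma-voom (adjusted p = 0.0568). Hmga1b and Ear1 belong to families of near-identical genes, where the counting of reads could move values between copies.

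In the size of the normalised value itself, 7 of the 10 largest gains were those of the late neutrophil genes Ngp, S100a9, Ltf, S100a8, Lcn2, Camp and Cd177. Ngp, a neutrophil granule protein, rose from 86469, 165845 and 34305 to 385641, 326070 and 310866 (log2 2.10, SE 0.46, adjusted p = 0.00683) and stayed below WT, where it was at 1094846 or more. Mpo, myeloperoxidase of granulocyte precursors, rose from 92604, 124100 and 106779 to 164347, 241378 and 230524 (log2 0.97, SE 0.17, adjusted p = 0.00268). mt-Cytb and Hspa8, a mitochondrial cytochrome and a constitutive heat shock protein, were called higher (log2 0.51 and 0.46), but not after quantile normalisation (adjusted p = 0.39 and 0.0626). The largest loss was that of Psap (chromosome 10, 60277627 to 60302597), prosaposin, the precursor of lysosomal lipid-binding proteins. Its values were 194679, 150399 and 178556 in KI and 59065, 60525 and 47234 in KI_Chd7del (a log2 change of -1.65, SE 0.13, adjusted p = 6.01e-05). Fn1 (chromosome 1, 71585520 to 71653200), fibronectin, fell from 79972, 65084 and 70325 to 11001, 6592 and 4401, a 10.5-fold fall (log2 -3.39, SE 0.27). The KI_Chd7del libraries of Fn1 still lay above WT (622, 478 and 600). C3, the central complement protein, fell by 0.77 and Mpeg1, a macrophage pore protein, by 1.38. The groups did not overlap for Mpo, C3 or Mpeg1, as was so for 52.0% of all genes tested.

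**Figure D2:**
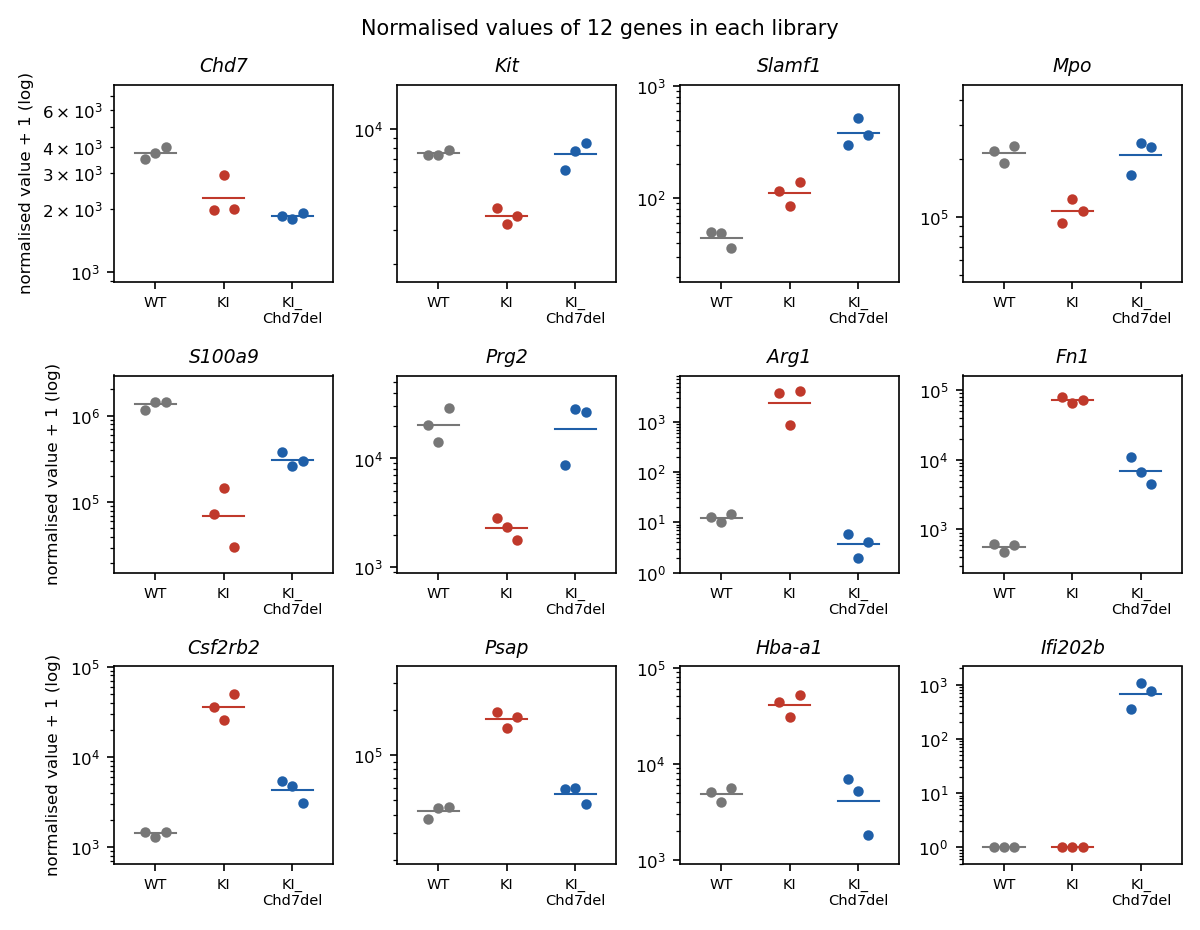
Normalised values plus 1 of 12 genes on log axes, 1 point per library and a line at each group's mean on the log scale, for WT, KI and KI_Chd7del. KI and KI_Chd7del do not overlap in any panel, as is so for 52.0% of all genes tested, although Chd7 did not pass the test. For Mpo and Kit the KI_Chd7del points lie at the level of WT.

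Promoter sequences of 4 genes that fell are printed because they show motifs of factors named by the study or known for the gene group. They are the 250 bases before the RefSeq start on GRCm38.p6, 5′ to 3′ on the strand of the gene, with the motif in capitals. The motif TGTGGT (read as ACCACA on the other strand), bound by core binding factor, is marked in Mitf, the master transcription factor of mast cells (chr6:97806808-97807057, plus strand), and in Tph1 (chr7:46672538-46672787, minus strand). CACGTG, an E-box of lysosomal genes, is marked in Ctsa, the protective cathepsin A (chr2:164833523-164833772, plus strand). The GATA motif of erythroid genes, AGATAA, is read on the other strand as TTATCT and is marked in Epb42, a red cell membrane protein (chr2:121036878-121037127, minus strand).
Mitf: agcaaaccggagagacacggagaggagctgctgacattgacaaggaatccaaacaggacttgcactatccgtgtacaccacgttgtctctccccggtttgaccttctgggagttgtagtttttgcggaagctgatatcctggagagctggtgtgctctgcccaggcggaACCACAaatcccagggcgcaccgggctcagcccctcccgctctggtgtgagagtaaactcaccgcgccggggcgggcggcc
Tph1: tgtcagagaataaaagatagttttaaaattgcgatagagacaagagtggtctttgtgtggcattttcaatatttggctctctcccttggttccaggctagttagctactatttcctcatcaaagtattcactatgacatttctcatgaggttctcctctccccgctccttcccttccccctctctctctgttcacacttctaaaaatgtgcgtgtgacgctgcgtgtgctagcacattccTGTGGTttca
Ctsa: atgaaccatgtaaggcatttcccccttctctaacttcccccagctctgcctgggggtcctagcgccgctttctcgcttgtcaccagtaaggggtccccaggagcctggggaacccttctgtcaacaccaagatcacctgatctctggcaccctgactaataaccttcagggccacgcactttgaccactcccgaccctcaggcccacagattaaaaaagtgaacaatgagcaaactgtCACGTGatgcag
Epb42: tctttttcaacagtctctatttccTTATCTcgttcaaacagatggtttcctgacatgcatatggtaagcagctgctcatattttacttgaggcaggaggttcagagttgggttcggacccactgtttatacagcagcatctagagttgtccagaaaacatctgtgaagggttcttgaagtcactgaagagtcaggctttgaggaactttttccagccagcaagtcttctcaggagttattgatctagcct

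Both strands were searched in windows that run from 250 bases before to 50 after each start, and the motifs and genes were chosen after values were seen. TGTGGT was found in 16.8% of all 32851 windows and in 13.5% of the 13844 windows of genes tested. AGATAA was found in 11.2% and 7.0% of them, and CACGTG in 7.15% and 9.59%. Of 21 windows of mast cell genes 11 held TGTGGT (52.4%, 11 of 15 genes), 6 held AGATAA (28.6%) and none held CACGTG. Of 17 windows of lysosome genes 4 held the core binding factor motif (23.5%), 3 the GATA motif (17.6%) and 5 the E-box (29.4%). Of 17 windows of erythroid genes 4 held the core binding factor motif and 4 the GATA motif (23.5% each), and none held the E-box. CACGTG was also in 4 of 13 windows of heme synthesis genes (30.8%), and TGTGGT in 2 of 19 windows of late neutrophil genes (10.5%). Over the genes that fell at least 2-fold, the shares were 16.9% for the core binding factor motif, 11.1% for the GATA motif and 5.97% for the E-box, and over those that rose at least 2-fold 17.4%, 9.96% and 6.58%. In both directions the shares of the first and second motif were above, and that of the E-box below, those of the genes tested. A match is a description of the letters in these windows, and binding was not measured.

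Genes of maturing neutrophils were higher in KI_Chd7del throughout. All 20 of 20 late neutrophil genes rose (median log2 1.77, against -0.01 over all genes tested). Fcnb, a ficolin that binds microbial sugars, was at 3208, 5398 and 1910 in KI and 11144, 9368 and 10571 in KI_Chd7del (a log2 change of 1.69, SE 0.29, adjusted p = 0.00238). Pglyrp1, a peptidoglycan-binding protein of granules, rose from 3507, 7638 and 1723 to 17705, 17783 and 17493. The KI_Chd7del libraries of Pglyrp1 were almost level, while KI library 2 was highest and KI library 3 lowest of their group, as was also so for Fcnb. Mmp9, a granule gelatinase, rose from 5143, 9941 and 2531 to 16797, 16893 and 20668, and Cxcr2, the chemokine receptor that calls neutrophils to tissue, from 1873, 5002 and 1091 to 6801, 8080 and 7492. The list as a whole took 0.483% to 2.15% of the column total in KI, 3.82% to 4.87% in KI_Chd7del and 10.9% to 12.8% in WT.

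Early granule genes, which mark promyelocytes, followed with 11 of 13 higher and none lower (median log2 0.87). Cebpe, the transcription factor of secondary granule formation, was at 1147, 1906 and 611 in KI and 4042, 3740 and 3918 in KI_Chd7del (a log2 change of 1.82, SE 0.32, adjusted p = 0.00246). Gfi1, a repressor required for granulocyte maturation, rose from 1152, 2111 and 1099 to 3484, 3129 and 3301 (log2 1.25, SE 0.21). The serine proteases Prtn3, Ctsg and Elane rose by 0.71, 0.75 and 0.82. Ctsg reached 38170, 53604 and 44360, above its WT values of 34080, 27171 and 34166, whereas Elane at 23827, 32868 and 36895 remained below 81378. Calr and Hp, a chaperone and haptoglobin, were at 0.20 and 0.40 and did not pass.

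**Figure D3:**
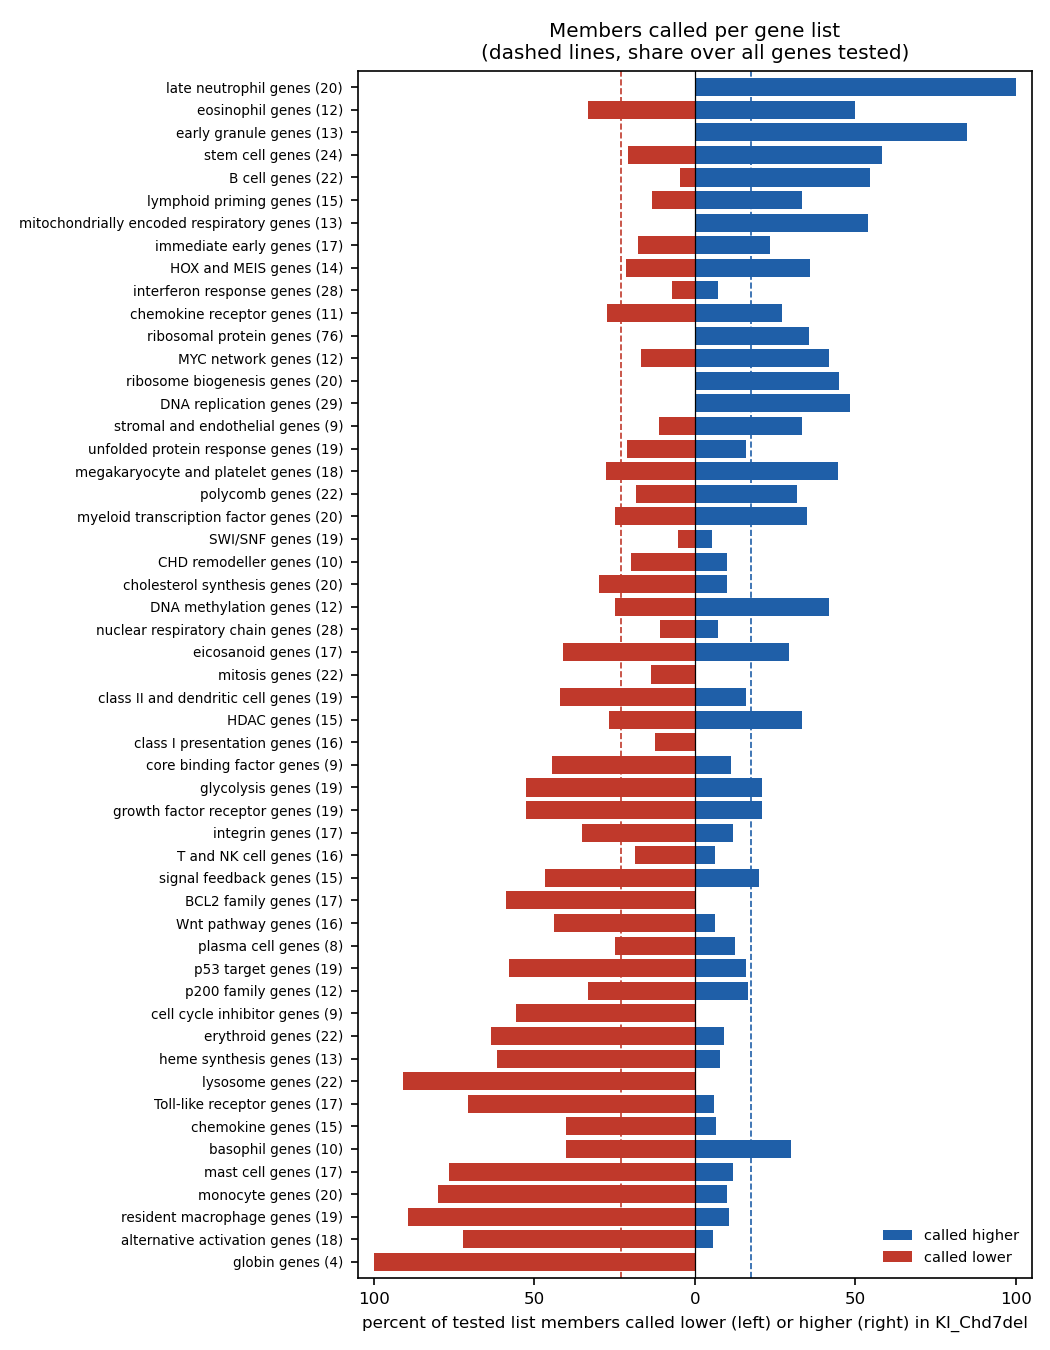
For each of the 53 gene lists, ordered by median log2 fold change, the bar to the right is the percent of tested members called higher and the bar to the left the percent called lower in KI_Chd7del; the number tested is in brackets. Dashed lines mark the shares over all genes tested (17.5% and 22.9%), which the late neutrophil bar at 100 and the globin bar at 100 pass in opposite directions.

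Most monocyte genes fell. Of 20 tested, 16 were lower and 2 higher (median log2 -1.15). Ccr2, the receptor that brings monocytes out of the marrow, was at 37989, 32920 and 36652 in KI and 8375, 6209 and 5567 in KI_Chd7del (a log2 change of -2.44, SE 0.15, adjusted p = 2.42e-05). Emilin2, a matrix glycoprotein, fell from 14595, 14098 and 13524 to 5304, 5643 and 4921, and Ly86, the partner protein of CD180, from 8127, 6985 and 8052 to 3653, 3540 and 3470. Both groups were tight for Emilin2 and Ly86 and did not overlap, as was so for 52.0% of all genes tested. The exceptions were Cx3cr1, the fractalkine receptor, which rose from 223, 188 and 192 to 307, 658 and 806, and Irf8, a transcription factor of monocyte and dendritic cell precursors, which rose from 7074, 7850 and 8749 to 12341, 11208 and 11292 (log2 0.56, SE 0.13, adjusted p = 0.00971). Ly6c2, a surface protein of inflammatory monocytes, differed by 0.23 (SE 0.10, adjusted p = 0.0825).

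Most genes of the macrophage lists fell as well. Among 18 alternative activation genes, which respond to IL-4, 13 were lower and 1 higher (median log2 -1.61). Clec7a, the glucan receptor dectin-1, was at 8300, 6489 and 8226 in KI and 1521, 1657 and 1530 in KI_Chd7del (a log2 change of -2.28, SE 0.14, adjusted p = 2.42e-05). Ccl24, an eosinophil chemokine, fell from 8313, 3875 and 7656 to 449, 161 and 166, and Irf4, a transcription factor of that state, from 2261, 1864 and 2757 to 775, 559 and 958. Alox15, described above, was the member that rose. Chil3, a chitinase-like protein also abundant in neutrophil precursors, was at 183569, 176829 and 135316 against 176911, 122825 and 102234 and did not pass (log2 -0.33, adjusted p = 0.272). Of 19 resident macrophage genes 17 were lower and 2 higher (median -1.42). Trem2, a lipid-sensing receptor, fell from 2781, 2128 and 2645 to 418, 367 and 336 (log2 -2.75, SE 0.17, adjusted p = 2.18e-05). Mertk, a receptor for the uptake of dead cells, fell from 1526, 882 and 1221 to 238, 212 and 222, level with WT (223, 283 and 217). The complement genes C1qa, C1qb and C1qc fell by 1.45, 1.51 and 1.42. Vcam1, an adhesion molecule, and Slc40a1, the iron exporter ferroportin, were the 2 members that rose (log2 0.55 and 0.45), and neither was called without KI_Chd7del library 1 or without library 2.

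Genes of the lysosome, the degradative organelle that macrophages hold in large numbers, fell almost as a block, with 20 of 22 lower and none higher (median log2 -0.83). Ctsc, cathepsin C, the protease that activates granule proteases, was at 36195, 30249 and 36241 in KI and 4852, 6350 and 5713 in KI_Chd7del (a log2 change of -2.61, SE 0.11, adjusted p = 5.5e-06). Ctsa, whose promoter is printed above, fell from 14867, 12442 and 13682 to 6479, 7572 and 6352 (log2 -1.01, SE 0.08). Grn, progranulin, fell from 20666, 17886 and 19657 to 12138, 11693 and 11940. None of these 3 overlapped between the groups, as was so for 52.0% of all genes tested. The Grn values of KI_Chd7del lay below WT (16019, 15721 and 16099). Atp6v0d2, a proton pump subunit of macrophages and osteoclasts, had the largest fall of the list, from 1515, 529 and 1463 to 161, 36 and 19 (log2 -4.42, SE 0.76). Hexa and Gusb, a hexosaminidase subunit and a glucuronidase, differed by -0.03 and -0.02 and did not pass. The summed lysosome list took 1.09% to 1.34% of the total in KI, 0.552% to 0.607% in KI_Chd7del and 0.452% to 0.469% in WT.

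Most Toll-like receptor genes moved with these lists, while most chemokine genes did not pass and chemokine receptor genes split. Among 17 Toll-like receptor genes 12 were lower and 1 higher (median log2 -0.94). Tlr8, an endosomal RNA sensor, fell from 3532, 3080 and 3345 to 674, 716 and 705, and Tlr4, the endotoxin receptor, from 2232, 2519 and 2197 to 1041, 995 and 1019. The 2 groups of each were far apart. Tlr5, the flagellin receptor, rose from 107, 124 and 80 to 156, 187 and 195. Of 15 chemokine genes 6 were lower and 1 higher (median -0.96). Ccl6 and Ccl9, chemokines of myeloid cells, fell by 2.07 and 1.17, and Ccl12 from 87, 26 and 55 to 2, 8 and 8. Cxcl2, a neutrophil chemokine, rose from 3, 8 and 1 to 13, 70 and 31 (adjusted p = 0.0459). Chemokine receptor genes split into 3 higher and 3 lower of 11 (median 0.25). Cxcr4, the receptor that holds cells in the marrow, rose from 4726, 5063 and 4949 to 8892, 6204 and 6864.

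Genes of class II antigen presentation fell in part. Of 19 class II and dendritic cell genes 8 were lower and 3 higher (median log2 -0.09). Ciita, the transactivator of class II genes, was at 4213, 3239 and 3528 in KI and 587, 923 and 916 in KI_Chd7del (a log2 change of -2.20, SE 0.19, adjusted p = 7.9e-05). H2-DMa and H2-DMb1, which load peptides, fell by 0.80 and 1.27, and Batf3, a transcription factor of cross-presenting dendritic cells, from 393, 231 and 365 to 58, 42 and 37. Flt3, a receptor of early progenitors, rose from 2138, 1782 and 2051 to 3371, 3005 and 3094. The plasmacytoid markers Siglech and Tcf4 were at 0.53 and -0.09 and did not pass. Of 16 class I presentation genes 2 were lower, the proteasome subunit gene Psmb10 (-0.48) and H2-T23 (-0.44), and none was higher (median -0.15).

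Most mast cell genes fell in KI_Chd7del. Of 17 tested, 13 were lower and 2 higher (median log2 -1.05). Mitf was at 1757, 1382 and 2225 in KI, 409, 421 and 364 in KI_Chd7del and 234, 206 and 230 in WT (log2 -2.14, SE 0.16, adjusted p = 3.81e-05). Il1rl1, the IL-33 receptor, fell from 44037, 28151 and 48086 to 13457, 9225 and 6578 and stayed above WT (1122 to 1308). Ms4a2 and Fcer1a, chains of the high-affinity IgE receptor, fell by 0.91 and 1.03. Fcer1a of KI_Chd7del library 2 (11923) lay above KI library 2 (11326), so its groups overlapped. The mast cell proteases Mcpt1 and Mcpt2 fell from 16539, 18321 and 21135 to 1893, 3047 and 168 and from 1849, 2251 and 2634 to 324, 374 and 19. KI_Chd7del library 3 was lowest for both, and some reads of these related genes may be divided between them. Hdc, histidine decarboxylase, rose by 0.42, and Srgn, the proteoglycan serglycin, by 0.27. The count of lower mast cell genes was 8 without KI library 1 and 8 without KI library 3.

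Basophil and eosinophil genes split within their lists. Of 10 basophil genes 4 were lower and 3 higher (median log2 -0.99). Cd200r3, an activating receptor, fell from 4939, 3756 and 6137 to 1033, 1051 and 688, and the cytokine genes Il13 and Il4 from 241, 177 and 300 to 34, 25 and 13 and from 442, 369 and 575 to 142, 147 and 93. In contrast Prss34 and Mcpt8, proteases of basophil granules, rose from 785, 831 and 761 to 2970, 2104 and 3606 and from 925, 776 and 953 to 1889, 2499 and 3243. None of these 5 overlapped between the groups, as was so for 52.0% of all genes tested. Eosinophil genes had 6 of 12 higher and 4 lower (median 1.59). The higher ones were granule genes such as Prg2, Prg3, Epx and Ear1, and in each of these KI_Chd7del library 1 was the lowest of its group. Ccr3, the eotaxin receptor, fell from 1037, 545 and 476 to 243, 215 and 362, and Clec4a4 from 21, 29 and 31 to 2, 5 and 5. Il5ra, the receptor of the eosinophil growth factor, was at 33, 36 and 32 against 28, 70 and 68 (adjusted p = 0.286). Eosinophil genes called higher were 3 with limma-voom, and those called lower were 2 without KI library 1 and 2 without KI library 3.

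**Figure D4:**
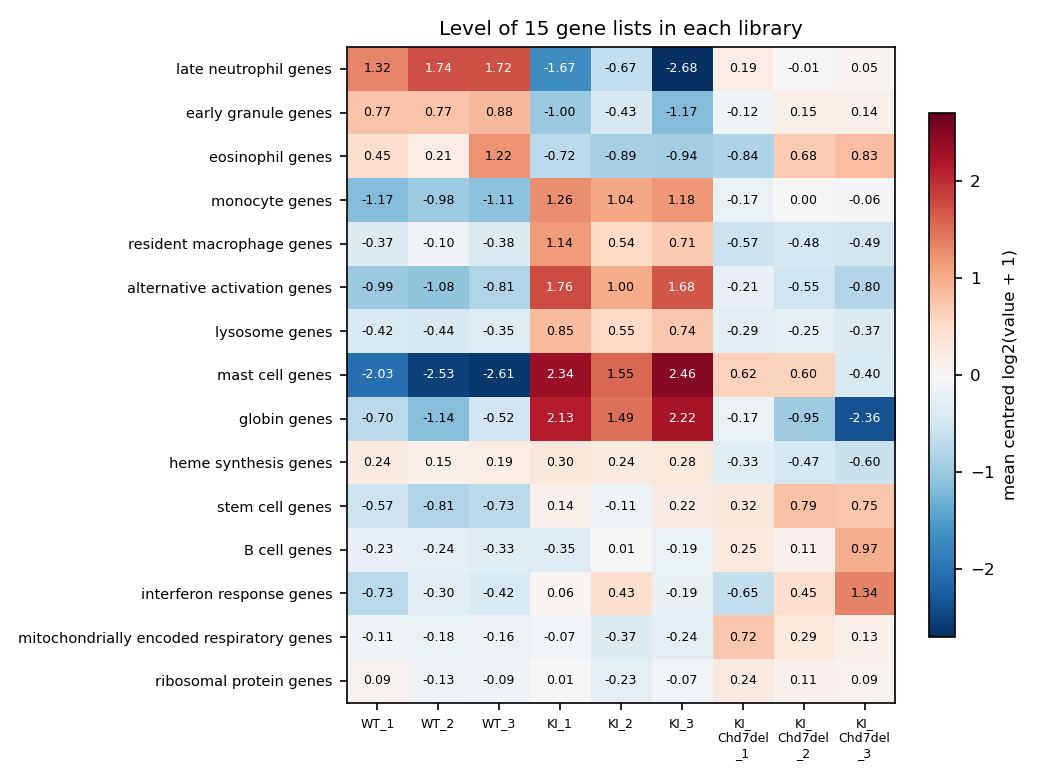
Mean over the members of each of 15 lists of log2(value + 1), centred per gene over the 9 libraries, with red for high and blue for low; columns are libraries. In KI_Chd7del, library 1 is low for eosinophil and interferon response genes and high for mitochondrially encoded genes, and library 3 is lowest for globin and mast cell genes.

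Most red cell genes fell. Of 22 erythroid genes 14 were lower and 2 higher (median log2 -0.69). Slc4a1, the anion exchanger of the red cell membrane, was at 6593, 4880 and 4548 in KI and 1509, 901 and 960 in KI_Chd7del (a log2 change of -2.27, SE 0.24, adjusted p = 0.000212), below the 3789 to 6386 of WT. Dmtn and Ank1, membrane skeleton proteins, fell by 1.70 and 0.87, and Rhd and Ermap, surface antigens, by 0.77 and 0.85. Gata1, the transcription factor of the lineage, fell from 6505, 4943 and 7308 to 3400, 2816 and 2526, while Klf1, another one, was at 3184, 2504 and 2822 against 2806, 1988 and 2087 and did not pass (adjusted p = 0.103). Car1, an early erythroid carbonic anhydrase, and Aqp1, a water channel, rose by 0.64 and 1.12. The number of higher erythroid genes ranged from 0 to 4 as single libraries were left out.

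Globin genes had the lowest median of the 53 lists. All 4 globin genes tested were lower (median log2 -3.12), and the other 4 of the 8 on the list were not tested. Hba-a1, an alpha globin, was at 44007, 30916 and 51271 in KI, 6938, 5233 and 1823 in KI_Chd7del and 5084, 4020 and 5558 in WT (log2 -3.35, SE 0.43). Hbb-bs, a beta globin, fell from 40283, 26745 and 43283 to 7375, 4479 and 1481. KI_Chd7del library 3 was lowest in both, and the near-identical pairs Hba-a1 and Hba-a2, and Hbb-bs and Hbb-bt, may share reads. Of 13 heme synthesis genes 8 were lower and 1 higher (median -0.73). Alas2, the erythroid enzyme that starts heme synthesis, fell from 10569, 8124 and 12878 to 1123, 1003 and 230 (log2 -4.02, SE 0.53), and Fech, which inserts the iron, from 8446, 6983 and 8960 to 3210, 2876 and 2586. Alas1, the housekeeping counterpart of Alas2, went the other way, from 7415, 11992 and 7350 to 16239, 22284 and 18497 (log2 1.12, SE 0.19, adjusted p = 0.00206).

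Stem cell genes were higher more often than lower, 14 against 5 of 24 (median log2 0.76). Slamf1, a surface marker of stem cells, was at 114, 84 and 138 in KI, 299, 516 and 368 in KI_Chd7del and 49, 48 and 35 in WT (a 3.48-fold rise, adjusted p = 0.000877). Fgd5, another marker, rose from 20, 19 and 23 to 51, 87 and 67. Cd34, a progenitor surface protein, rose from 3138, 3705 and 4226 to 5242, 7054 and 7838. None of these 3 overlapped (52.0% of all genes tested did not), and all lay above WT in KI_Chd7del. In contrast Hlf and Tek, a stem cell transcription factor and the angiopoietin receptor, fell from 2973, 2509 and 3541 to 1582, 1951 and 1512 and from 1663, 1011 and 1604 to 638, 643 and 456. Ly6a, the stem cell antigen Sca-1, was at 387, 669 and 352 against 269, 818 and 1233 (adjusted p = 0.426). The count of higher stem cell genes was 9 without KI_Chd7del library 2 and 9 without library 3.

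Megakaryocyte and platelet genes divided into 8 higher and 5 lower of 18 (median log2 0.15). Pf4, platelet factor 4, rose from 124, 83 and 135 to 390, 660 and 869, and Gp9, a subunit of the von Willebrand factor receptor, from 61, 58 and 42 to 145, 190 and 162. Tubb1, a platelet tubulin, and Clec1b, a platelet activating receptor, fell from 436, 323 and 472 to 51, 90 and 61 and from 304, 187 and 271 to 38, 50 and 53. All 4 were separated between the groups, as were 52.0% of all genes tested. Among 14 HOX and MEIS genes, regulators of self-renewal, 5 rose and 3 fell (median 0.30). Hoxa5, Hoxa7 and Hoxa9 rose by 1.41, 0.69 and 0.66, with Hoxa9 going from 172, 161 and 131 to 204, 244 and 292. Meis3, a relative of the HOX cofactor Meis1, fell from 28, 32 and 32 to 14, 7 and 10. The count of higher HOX and MEIS genes was 3 without KI library 3 and 3 without KI_Chd7del library 3.

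Transcription factors of myeloid cells had 7 of 20 higher and 5 lower (median log2 0.08). Myb, a driver of progenitor growth, rose from 7055, 8381 and 7781 to 13550, 14105 and 15971 (log2 0.91, SE 0.09, adjusted p = 0.000144), above its WT values of 10993 to 12838. Erg, an ETS factor of stem cells, rose by 0.73. Zeb2, a zinc finger factor of monocytes, fell from 10836, 10904 and 12023 to 5627, 5279 and 5716 (log2 -1.02, SE 0.09). Spi1 and Cebpa, encoding PU.1 and the granulocyte-monocyte factor C/EBP alpha, were at 0.11 and 0.14 and did not pass. Of 9 genes on the core binding factor list, which also holds corepressor genes and a deacetylase, 4 were lower and 1 higher (median -0.16). Runx1, whose product the fusion binds, fell from 6342, 5794 and 7589 to 4645, 4452 and 4475 (log2 -0.53, SE 0.09, adjusted p = 0.00179). Runx1t1, a corepressor gene (chromosome 4, 13743436 to 13893649), was at 2048, 1307 and 2429 in KI, 225, 117 and 18 in KI_Chd7del and 5, 5 and 6 in WT (log2 -4.55, SE 0.74). Its relative Cbfa2t3 fell by 0.51, and Hdac8, a deacetylase that binds the fusion, rose by 0.36.

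Of the lymphoid lists, B cell genes were called more often than the 40.4% of all genes tested, mostly higher. The share called was near 40.4% for lymphoid priming genes and below it for plasma cell genes and for T and NK cell genes. Of 15 lymphoid priming genes 5 were higher and 2 lower (median log2 0.44). Satb1, a chromatin organiser of early lymphoid cells, rose from 1340, 1706 and 1558 to 3225, 2569 and 3089, and Cd27, a co-stimulatory receptor, from 505, 615 and 645 to 971, 1137 and 1296. Gata3, a T cell and mast cell precursor factor, fell from 1225, 941 and 1578 to 599, 361 and 309. Of 22 B cell genes 12 were higher and 1 lower (median 0.74). Blk, a B lineage kinase, rose from 26, 16 and 19 to 57, 87 and 78, and the surrogate light chain genes Vpreb1, Vpreb2, Vpreb3 and Igll1 by 1.16, 1.33, 1.12 and 1.22. KI_Chd7del library 3 had the highest value in each of these 4 genes. The mature B cell marker Ms4a1 was at 56, 44 and 35 against 28, 44 and 232 and did not pass (adjusted p = 0.497). Without KI library 1, 6 B cell genes were called higher. Of 8 plasma cell genes 2 fell, Prdm1, the plasma cell repressor Blimp-1 (434, 359 and 370 against 46, 71 and 82), and Xbp1 (-0.43), and Sdc1 was higher (0.77), a call lost without KI_Chd7del library 2 (adjusted p = 0.0512), with a list median of -0.42. T and NK cell genes had 3 of 16 lower and 1 higher (median -0.32). Prf1 and Gzma, killing proteins, fell from 68, 193 and 120 to 23, 18 and 32 and from 45, 167 and 82 to 6, 20 and 19. Cd3e was the other member called lower, a call lost without KI library 2 (adjusted p = 0.0702) or KI_Chd7del library 1 (0.063). The member called higher was Ncr1, an NK cell receptor (9, 14 and 12 against 19, 57 and 90). The other 12 did not pass or were not called, among them the killing protein Gzmb (-0.01). Of the 9 stromal and endothelial genes tested 3 were higher, Emcn, Pdgfrb and Col1a1 (1.57, 1.27 and 1.77), and 1 lower (median 0.18, or -0.09 without KI library 1). Cxcl12, a chemokine that stromal cells make, fell from 1167, 772 and 1733 to 167, 483 and 95, while Col1a1, a collagen of stromal cells, rose from 19, 31 and 40 to 68, 86 and 174.

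Growth factor receptors changed in both directions. Of 19 tested 10 were lower and 4 higher (median log2 -0.28). Csf2rb2 (chromosome 15, 78282507 to 78305721), the IL-3 specific beta receptor of the mouse, was at 35969, 25851 and 50319 in KI, 5415, 4814 and 3109 in KI_Chd7del and 1456, 1308 and 1483 in WT (log2 -3.06, SE 0.25, adjusted p = 6.51e-05). Csf2rb, the shared beta chain for IL-3, IL-5 and GM-CSF, fell from 45200, 38181 and 56935 to 14047, 14810 and 11303. These 2 are near-identical in sequence and may share reads. Csf1r, the macrophage growth factor receptor, fell from 31256, 23566 and 28645 to 11177, 14434 and 12602. Among 15 signal feedback genes, switched on by cytokine signalling, 7 were lower and 3 higher (median -0.33). Cish, a STAT5 target that dampens cytokine receptors, fell from 1381, 1080 and 1965 to 367, 247 and 219, and Socs3, a STAT3 target, from 904, 677 and 922 to 119, 269 and 152. Pim1, a survival kinase, fell from 5954, 6468 and 7753 to 3066, 3792 and 2921, while Dusp6, a phosphatase induced by ERK signalling, rose from 729, 752 and 709 to 1000, 1277 and 1592. None of these 4 overlapped, as was so for 52.0% of all genes tested. The count of higher signal feedback genes was 1 without KI library 3 or KI_Chd7del library 3 and 5 without KI_Chd7del library 1.

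Immediate early genes, which respond within minutes to stimuli and to handling of cells, had 4 of 17 higher and 3 lower (median log2 0.33). The share called was close to the 40.4% of all genes tested. Fosb was at 7, 8 and 34 in KI and 82, 1121 and 231 in KI_Chd7del (a log2 change of 4.36, SE 1.16, adjusted p = 0.0162). That call was lost without KI library 1 (adjusted p = 0.056) or KI_Chd7del library 2 (0.0537), and with limma-voom (0.072). Dusp1 and Egr1 were highest in the same library, with 835, 3345 and 1620 and 147, 1071 and 361. Atf3 fell from 731, 647 and 930 to 81, 83 and 111 and Egr2 from 92, 72 and 173 to 27, 30 and 22. The count of higher immediate early genes was 1 without KI_Chd7del library 2, 2 without KI library 1 and 7 without KI_Chd7del library 1.

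Cell cycle genes moved by small amounts. Of 29 DNA replication genes 14 were higher and none lower (median log2 0.19). Cdc45, a helicase component, rose from 2493, 2957 and 2495 to 3409, 3551 and 3504 (log2 0.40, SE 0.07, adjusted p = 0.00247). Prim1, a primase subunit, and Gins3, a part of the replicative helicase, rose by 0.27 and 0.37. The number of DNA replication genes called higher was 6 without KI library 3, 9 without KI_Chd7del library 2 and 7 without KI_Chd7del library 3. It was 22 with upper-quartile scaling and 24 with quantile normalisation. Of 22 mitosis genes none was higher and 3 were lower, Ccnb1, Kif20a and Cenpe (-0.26, -0.22 and -0.25), and their median of -0.09 turned to 0.02 with quantile normalisation. Ccnb1, Kif20a and Cenpe were not called with that scaling. Kif20a was also not called with upper-quartile scaling or with column totals without late neutrophil genes. Cenpe lost its call under 10 alternatives in all, including every other rescaling but median-of-ratios and 4 of the 9 fits without 1 library (adjusted p = 0.05 to 0.207). Without KI_Chd7del library 1, 6 mitosis genes were lower.

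Some inhibitors of the cell cycle and both inducers and blockers of cell death fell. Of 9 cell cycle inhibitor genes 5 were lower and none higher (median log2 -0.59). Rb1, the retinoblastoma gene, was at 6809, 6380 and 7201 in KI and 3788, 3474 and 3580 in KI_Chd7del (a log2 change of -0.91, SE 0.06, adjusted p = 2.23e-05), below WT (5174 to 5361). Cdkn1a, encoding p21, fell from 1239, 905 and 1483 to 397, 369 and 414. Cdkn2a, the locus of p16 and p19, fell from 42, 30 and 35 to 7, 4 and 7, with 2, 2 and 1 in WT. Of 19 p53 target genes 11 were lower and 3 higher (median -0.44). Phlda3, an inhibitor of AKT, fell from 734, 576 and 812 to 245, 198 and 88, Bbc3, encoding PUMA, from 474, 326 and 635 to 192, 196 and 176, and Bax by 0.55. Without any 1 of WT library 2, KI libraries 1 and 3 and KI_Chd7del libraries 2 and 3, only 1 of the p53 target genes was called higher. Of 17 BCL2 family genes 10 were lower and none higher (median -0.35). Both inducers and blockers of death were among them: Bcl2l11, encoding BIM, fell from 3176, 2810 and 3654 to 1032, 953 and 1030, and Mcl1, a survival protein, from 14267, 14170 and 13130 to 9495, 9392 and 9165.

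Genes of protein synthesis that were called were higher, but most members of both lists did not pass. Of 76 ribosomal protein genes 27 were higher and none lower (median log2 0.24), with Rps29 going from 23566, 19786 and 22361 to 34684, 29383 and 29133 and Rpl36a from 13609, 11746 and 13201 to 22433, 17189 and 17003. KI_Chd7del library 1 was highest in both. The number of ribosomal protein genes called higher was 11 and 17 without KI library 2 and 3, 16 without KI_Chd7del library 1, 45 with the column total without late neutrophil genes and 49 with upper-quartile scaling. Of 20 ribosome biogenesis genes 9 were higher and none lower (median 0.21), or 14 without KI_Chd7del library 1. Wdr12, a factor of large subunit assembly, rose from 1900, 1995 and 1957 to 2528, 2876 and 2771, and Npm1, nucleophosmin, by 0.33. Of 12 MYC network genes 5 were higher and 2 lower (median 0.23), or 8 higher with quantile normalisation. Mycl and Mycn, relatives of Myc, rose from 99, 108 and 124 to 475, 281 and 300 and from 28, 25 and 35 to 59, 112 and 92, while Myc itself (0.32) did not pass.

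Mitochondrially encoded respiratory genes had 7 of 13 higher and none lower (median log2 0.40). Without KI_Chd7del library 1 the count was 7 and the median 0.26, and without KI_Chd7del library 3 the count was 11. mt-Atp6, a subunit of ATP synthase, was at 1268, 1006 and 1091 in KI and 3076, 2229 and 2098 in KI_Chd7del (a log2 change of 1.12, SE 0.14, adjusted p = 0.000528), with library 1 highest. The 28 nuclear respiratory chain genes had 2 higher and 3 lower, with a median of -0.03 that turned to 0.08 with quantile normalisation. Ndufa4 and Ndufb3, subunits of the chain, rose by 0.20 each, and Sdhb fell by 0.25. Of 19 glycolysis genes 10 were lower and 4 higher (median -0.19). Slc2a1, a glucose transporter, fell from 2614, 2038 and 3255 to 942, 931 and 777, Pfkp, a phosphofructokinase, from 8828, 7936 and 10280 to 4252, 4733 and 3962, and Aldoa, an aldolase, by 0.67. Hk3, a hexokinase of granulocytes, rose from 7511, 11480 and 7642 to 14664, 15358 and 15967. Cholesterol synthesis genes had 6 of 20 lower and 2 higher, close to the 40.4% called over all genes tested. Their median of -0.03 turned to 0.05 with upper-quartile scaling. Lss and Mvd, enzymes of the pathway, fell by 0.41 and 0.57. Unfolded protein response genes had 4 of 19 lower and 3 higher (median 0.17), again near the share of all genes tested. They had 8 higher without KI_Chd7del library 1 and 2 lower without KI library 3. Trib3, a stress pseudokinase, fell from 123, 77 and 209 to 48, 62 and 53, and Hspa5, the chaperone BiP, rose from 28552, 27570 and 28425 to 32178, 46106 and 35948.

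Adhesion, lipid mediator and Wnt genes changed in both directions. Integrin genes had 6 of 17 lower and 2 higher (median log2 -0.29). Itgb7, a gut-homing integrin chain also found on mast cells, fell from 12803, 11672 and 11599 to 5489, 5348 and 4650, and Itgam, the CD11b chain, rose from 19721, 27216 and 14679 to 34588, 32151 and 31318. Upper-quartile scaling called 4 integrin genes higher, and none was higher without KI library 1, KI library 3 or KI_Chd7del library 2. Of 17 eicosanoid genes 7 were lower and 5 higher, 3 of them without KI_Chd7del library 3, and the median of -0.05 turned to 0.02 with upper-quartile scaling. Alox5, the first enzyme of leukotriene synthesis, fell from 28745, 20509 and 31803 to 12999, 9520 and 7000, and Cysltr1, a leukotriene receptor, from 938, 741 and 824 to 131, 161 and 169. Lta4h and Ltb4r1, the enzyme and receptor of leukotriene B4, rose by 0.96 and 1.13. Of 16 Wnt pathway genes 7 were lower and 1 higher (median -0.36). Wnt2, a ligand, was at 2399, 1782 and 3235 in KI, 208, 441 and 70 in KI_Chd7del and 2, 0 and 0 in WT (log2 -3.68, SE 0.65), Lrp6, a coreceptor, fell by 0.50, and Lef1, a nuclear effector, rose from 278, 462 and 471 to 812, 545 and 1081.

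Chromatin regulators had smaller medians. Of 10 CHD remodeller genes 2 fell, Chd8 (6493, 6838 and 6707 against 5295, 5473 and 5142) and Chd2 (-0.41), and Chd1l rose by 0.24 (median log2 0.04), with 3 CHD genes higher after quantile normalisation. SWI/SNF genes had 1 of 19 lower, Pbrm1 (-0.29), and 1 higher, Smarce1 (0.14), a call lost without any 1 of KI libraries 1 to 3 or KI_Chd7del libraries 2 and 3. Upper-quartile scaling called 5 SWI/SNF genes higher, and 4 were higher without KI_Chd7del library 1. Polycomb genes had 7 of 22 higher and 4 lower (median 0.08). Cbx7, a reader of the polycomb mark, fell from 681, 753 and 680 to 317, 335 and 341, and Ezh1, the minor methyltransferase, from 2512, 2341 and 2484 to 1762, 1624 and 1692. Bmi1, a subunit of the first polycomb complex, rose by 0.41. Without KI_Chd7del library 3, 4 polycomb genes were higher, and without KI library 1, 2 were lower. DNA methylation genes had 5 of 12 higher and 3 lower, with a median of -0.03 that turned to 0.05 with upper-quartile scaling. Tet2, a dioxygenase of methylcytosine, fell from 2194, 2677 and 2711 to 1383, 1174 and 1190, while Tet1 rose from 574, 701 and 618 to 1122, 922 and 1121. Without any 1 of KI library 1, KI library 3 and KI_Chd7del library 2, 3 DNA methylation genes were higher, and without KI_Chd7del library 1, 5 were lower. Of 15 HDAC genes 5 rose and 4 fell (median -0.13), among them Hdac2 (0.33), Hdac7 (0.73) and Hdac6 (-0.43).

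Interferon response genes depended on single libraries. Of 28 tested 2 were higher, Ifi44 and Bst2, and 2 lower, Gbp2 and Gbp3 (median log2 0.29). Ifi44, an interferon-induced protein, was at 75, 84 and 46 in KI and 346, 352 and 900 in KI_Chd7del (a log2 change of 2.84, SE 0.37). Gbp2, a guanylate-binding protein, fell from 3095, 7165 and 4096 to 981, 1072 and 1788 (log2 -1.86, SE 0.34). Isg15, a ubiquitin-like protein, was at 352, 399 and 328 against 162, 396 and 956, so the KI_Chd7del libraries lay on both sides of KI. Without KI_Chd7del library 1, 13 interferon response genes were called higher. Without KI_Chd7del library 3, 6 were called lower and the median was -0.25. The p200 family genes, DNA sensors that interferon induces, had 4 of 12 lower and 2 higher (median -0.51). Ifi207 and Ifi204 fell from 2063, 1469 and 1449 to 185, 344 and 607 and from 2302, 2612 and 2061 to 322, 435 and 1059, and Ifi205 rose from 108, 143 and 71 to 184, 283 and 372. Without KI_Chd7del library 3, 8 p200 family genes were lower.

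Few genes were detected in one group only. With a normalised value of at most 3 in each library of one group and at least 50 in each of the other, 3 genes were near 0 in KI, namely Ifi202b, Gm2539 and the antibody segment Ighv3-2. Ifi202b, another p200 gene, was listed at 0 in the KI and WT libraries and stood at 355, 1074 and 751 in KI_Chd7del. It lies on chromosome 1 (173962568 to 173982744), near Ifi204 (173747293 to 173766943) and Ifi207 (173723427 to 173741747). Whether this pattern of Ifi202b follows from the loss of Chd7 was not tested. Gm2539 was at 1, 0 and 0 in KI and 86, 87 and 95 in KI_Chd7del. The 2 genes near 0 in KI_Chd7del were Svs2, a seminal vesicle protein gene (427, 66 and 332 against 0, 1 and 0), and Eps8l1, an actin regulator (252, 94 and 375 against 0, 2 and 1). KI library 2 was again the lowest of its group for both. WT libraries of Eps8l1 varied widely (1, 103 and 213), and its call was lost with limma-voom (adjusted p = 0.0617).

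The region around Chd7 was described because the groups differ in that gene's alleles. Of 49 genes tested within 5 Mb of Chd7 on chromosome 4, 16 were called (32.7%), below the 40.4% of all genes, 9 higher and 7 lower. Lyn, a Src family kinase, fell from 11072, 10786 and 10491 to 7402, 7429 and 7216 (log2 -0.55, SE 0.07), and Asph, an aspartate hydroxylase, from 4821, 3581 and 4839 to 2360, 2832 and 2504. Rab2a, a trafficking GTPase, rose by 0.23 (SE 0.05). Runx1t1 lies 4875.8 kb from Chd7 and had by far the largest change of the 49. Without KI library 1, 10 of these genes were called, and without KI_Chd7del library 2, 9. Chromosome 4 as a whole had 41.1% of genes called, and chromosomes ranged from 36.7% (17) to 44.5% (1).

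**Figure D5:**
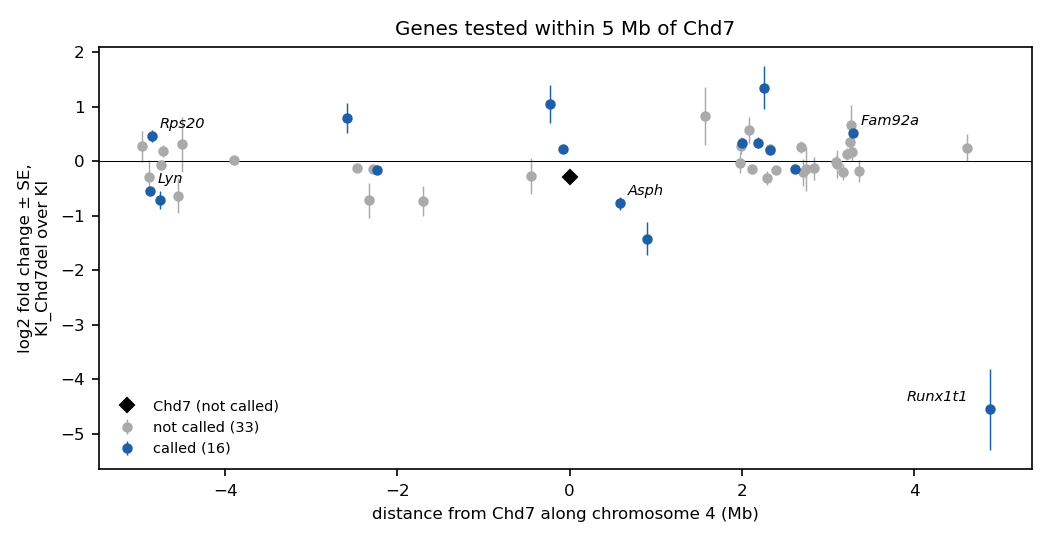
Log2 fold change with its SE for the 49 genes tested within 5 Mb of Chd7, against distance along chromosome 4 in Mb; blue points were called, grey points not, and the black diamond is Chd7. Changes scatter on both sides of 0, and Runx1t1 at the right edge stands far below the rest at -4.55.

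Classes of gene annotation, compared after values were seen, moved unequally. Of 1264 processed pseudogenes 31.8% were higher and 1.66% lower (median log2 0.54), against 17.3% and 25.3% of 13116 protein-coding genes (median -0.03). Processed pseudogenes are copies of messenger RNAs, often of ribosomal protein genes, and their values can include reads of the parent genes. Their summed value was 114967 to 137670 in KI, 178077 to 249797 in KI_Chd7del, with the highest in library 1, and 145562 to 169688 in WT. Without KI library 2, 267 processed pseudogenes were called higher in place of 402, and without KI_Chd7del library 1 it was 299 (median 0.47). Of 168 antibody variable segments 28.0% were lower and 1.79% higher (median -1.23), and limma-voom called 26 lower in place of 47. Their summed value was 58341, 37620 and 21161 in KI and 12366, 25527 and 21932 in KI_Chd7del, so the groups overlapped.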

How the data were processed

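Total RNA of bone marrow c-KIT+ cells was sequenced from 9 libraries in 3 groups of 3, grouped by the genotype labels. The deposited table holds 1 score per gene and library, whole numbers that look like size-factor-normalised values the authors rounded, so no count test was used and the read depth behind a value is unknown. The submitters' processing notes name CASAVA 1.8.2, STAR 2.4, RSEM and DESeq2 without their roles, and GRCm38; the annotation release is not given in the sources used here. Of 43629 identifiers 42548 were matched to GENCODE M21 symbols, 56 shared a symbol and 17778 were at 0 in all libraries.

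Genes that reached 10 in 3 or more libraries were tested with limma 3.58.1 (R 4.3.3, mean-variance trend) on log2(value + 1), with the 3 groups in 1 fit, no replicate block, Benjamini-Hochberg adjustment over all genes tested and a threshold of 0.05, 2-sided. Fold changes are on the log2(value + 1) scale and understate changes of low genes. The procedure was tested on simulated data with the same spread for every gene and no library that stood apart. Those settings differ from these data, where single libraries carried some calls. Tables and figures were made with Python 3.11.15, numpy 2.4.6, pandas 2.3.3 and matplotlib 3.10.9.

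The members of the comparison and the 53 gene lists (905 genes, 2 unmatched) were chosen with earlier results of these data known. Lists are described by members called and their median, and a list level is the mean of centred log2(value + 1). Named by rule were the altered genes, per direction the 15 largest log2 changes with a mean of at least 50 and no overlap, the 10 largest differences of group means, the genes near 0 in 1 group, and up to 4 members per list with the smallest adjusted p. Alternatives changed the pseudocount, filter, scaling, test, libraries, block, distance and level limits. Promoters are RefSeq sequences on GRCm38.p6. Results for some list members are not reported here.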

Additional observations from a re-analysis of the deposited data

How the results depend on the processing

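The number of genes called (6464) stayed within 1.5 times under the 21 alternatives, from 4657 without KI library 3 to 6966 with quantile normalisation. Calls higher in KI_Chd7del made up 43.4% of all calls, 46.8% with median-of-ratios factors, 45.6% with column totals, 53.9% with column totals without late neutrophil genes, 56.3% with upper-quartile and 57.0% with quantile scaling. Under them the all-gene median, -0.01 as reported, reached at most 0.07. Leaving out single libraries gave 4657 to 6394 calls, and the fit of only the 6 libraries 5538. With the replicate number as a block 5952 genes were called (2539 higher, 3413 lower). The correlations of same-numbered deviations were -0.0139, -0.0788 and -0.153, and no library correlated best with its own number. Deviations within groups of 3 cannot decide whether the numbers pair the samples, and the labels do not state it. The block called 42 ribosomal protein genes higher and 5 class I presentation genes lower, and Mx1 lower (-0.845, adjusted p = 0.0496).

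The difference of Cbfb, which never passed the test, turned positive with median-of-ratios (0.0125), upper-quartile (0.0685), column total (0.0108), column total without late neutrophil genes (0.0549) and quantile scaling (0.0911), and without KI library 3 (0.0305), KI_Chd7del library 2 (0.00722) or KI_Chd7del library 3 (0.0154); without single libraries it ran from -0.0419 to 0.0305. Of 235 genes named by the rule, 19 changed their call or sign under at least 1 alternative. Medians near 0 changed sign without KI_Chd7del library 1 for T and NK cell genes (0.003) and myeloid transcription factor genes (-0.00107). Calls near Chd7 (16 within 5 Mb) were 4 within 2 Mb and 21 within 10 Mb, and 9 to 16 when single libraries were left out. The 3 genes near 0 in KI became 6 when at least 20 was required in the other group, 1 at 100 and 1 when only 0 was allowed. The 2 genes near 0 in KI_Chd7del became 11, 0 and 0 under those limits, 16 when up to 10 was allowed, and 2 to 8 as single libraries were left out. The causes were not tested. Scaled values hide the read depth, so no counting error can be given.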
